A study of Mus musculus with 16 samples.

Results

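The NMDA receptor subunit genes were examined in RNA-seq of the mouse dorsal raphe nucleus (DRN), where most of the serotonin neurons that reach the forebrain lie. The set was defined by gene symbol as Grin1, Grin2a, Grin2b, Grin2c, Grin2d, Grin3a and Grin3b, and 6 of these 7 symbols were among the 14504 genes listed. Grin3b is not listed in the table of values and was not analysed here. NMDA receptors are ion channels opened by glutamate together with glycine or D-serine. Each receptor holds GluN1, the subunit encoded by Grin1, with GluN2 subunits (Grin2a to Grin2d) or GluN3 subunits (Grin3a, Grin3b), and the GluN2 type sets how strongly magnesium blocks the channel and how fast it closes. In the adult brain Grin2c is best known from cerebellar granule cells and astrocytes, and Grin2d from midbrain, brainstem and interneurons.

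The animals were adult male C57BL/6 mice (10 to 12 weeks old) in 6 groups and 16 libraries. Controls were unstressed mice given saline (con_sal, 3 libraries) or DEX at 2 mg/kg (dexamethasone, a synthetic agonist of the glucocorticoid receptor; con_dex, 3 libraries). Stressed mice had 30 days of chronic social defeat, were divided by their behavior into a passive coping type (PS, labelled dep1) and an active coping type (AS, labelled dep2), and received the same injections (dep1_sal, 2 libraries; dep1_dex, 3; dep2_sal, 3; dep2_dex, 2). Tissue was punched from cryosections 6 h after the injection. The study left out DEX libraries of PS and AS mice that were low in Tph2, the enzyme gene that starts serotonin synthesis, so the DEX groups of stressed mice were selected in part on expression. It also describes further DRN animals of both control groups and of the saline groups of PS and AS mice. These are not among the 16 libraries, so these groups are incomplete here. Each library carries its label, a group name with an animal number.

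The values are normalized counts, that is, reads per gene divided by 1 size factor per library. Libraries held 38207157 to 62447298 reads in the listed genes, and a subunit gene had between 836 reads (Grin2c in con_sal_114) and 25721 reads (Grin1 in dep2_sal_8). The label check was Fkbp5, a glucocorticoid-induced chaperone gene, which ranged from 5578 to 6958 normalized counts with DEX (8 libraries) and from 1241 to 1536 with saline (8 libraries). All 10 serotonin neuron markers were listed, and their summed level was between 321769 and 485013 normalized counts per library. Markers of cortical glutamate neurons (Slc17a7, Tbr1) and, of the cerebellar granule cell markers, Gabra6, Cbln3 and Zic1 are not listed. In such bulk tissue, fewer cells of a type and less RNA per cell cannot be told apart.

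Some libraries differed in how well long transcripts were represented, and 2 of the 6 subunit genes, Grin2a and Grin2b, have transcripts of over 10 kb. Over 345 other genes with a longest annotated transcript of at least 10 kb and a mean of at least 100 normalized counts, the median log2 deviation from the gene's mean over libraries was -0.72 in con_sal_104, -0.52 in dep2_sal_40 and -0.22 in con_sal_114. The other 13 libraries were between -0.07 and 0.25. All 3 low libraries are saline libraries, and they also held the 3 lowest values of Grin2c and of Grin2d among the 16 libraries, although these genes have shorter transcripts. Over all 16 libraries, the Pearson correlation of log2 level with this deviation was 0.95 for Grin2b and 0.88 for both Grin2a and Grin2d. It was 0.67 for Grin2c, 0.51 for Grin3a and 0.35 for Grin1. Results that rest on con_sal_104 and dep2_sal_40 are therefore given with and without them, and also after a lowess trend on transcript length was removed from each library or the deviation was added to the model as a covariate. These alternatives were chosen after seeing the data. No fit of the average DEX effect left out all 3 low libraries.

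The members sit on 6 chromosomes of GRCm38. Grin1 (ENSMUSG00000026959.13) is at chr2:25291181-25319187, Grin2a (ENSMUSG00000059003.12) at chr16:9567898-9995560, Grin2b (ENSMUSG00000030209.14) at chr6:135713233-136173511, Grin2c (ENSMUSG00000020734.13) at chr11:115249169-115267243, Grin2d at chr7:45831883-45878378 and Grin3a at chr4:49661611-49845744, all on the minus strand. The longest annotated transcripts are 4276 bases for Grin1, 4895 for Grin2c, 5431 for Grin2d, 7491 for Grin3a, 14634 for Grin2a and 24060 for Grin2b. The antisense gene Grin1os shares 1307 exon bases with Grin1 and was itself at 11 to 278 normalized counts. Whether reads were counted by strand is not given in the sources used here, so this small part of Grin1 is uncertain.

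Grin2c was the subunit gene that DEX raised, so its promoter is shown. RefSeq promoter windows were at hand for 4 members (Grin1, Grin2c, Grin2d and Grin3b). The 250 bases before the annotated start of Grin2c (GRCm38.p6, chr11:115267244-115267493, minus strand, printed 5′ to 3′ in the direction of transcription) are given here, with capitals marking a match to ACANNNTGT, the spaced core of the glucocorticoid response element.
Grin2c: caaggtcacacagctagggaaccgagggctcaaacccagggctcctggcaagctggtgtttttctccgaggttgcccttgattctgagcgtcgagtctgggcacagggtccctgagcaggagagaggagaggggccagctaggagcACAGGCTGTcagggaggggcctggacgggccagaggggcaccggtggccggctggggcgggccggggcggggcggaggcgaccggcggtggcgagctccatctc
The core, which reads the same on both strands as a pattern, ended 95 bases before the start. It was also found in the window of Grin3b and not in those of Grin1 and Grin2d, and 5.84% of 32851 promoter windows of this length hold it. The Grin2d window (chr7:45866682-45866931) lies inside the Grin2d locus given above. The bases before the outer end of that locus were therefore not searched. A longer form that contains the core, with any base and then a G before it and any base and then a C after it, was in none of the 4 windows and in 0.387% of all. The Grin2c window had a GC content of 68.8% with 15 CpG pairs, against 58.8% and 27 for Grin1 and 54.4% and 9 for Grin2d. A match is a string of letters and not a measured binding site.

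To compare levels between genes, normalized counts were divided by the length of the merged exons in kb. Grin1, the subunit that every receptor needs, was the most abundant member at 1858 ± 166 (SD, n = 16) normalized counts per kb. Grin2d followed at 509 ± 112, and no library had Grin2d at or above Grin1. Grin2c was at 270.5 ± 76.7, Grin3a at 258 ± 35.7, Grin2b at 237 ± 74.3 and Grin2a at 164 ± 39.2 normalized counts per kb (SD, n = 16). Grin2d was above Grin2c in 16 of 16 libraries and Grin2b above Grin2a in 15 of 16. The 3 genes in between had overlapping ranges. Grin2c was above Grin3a in 8 of 16 libraries, which were the 8 DEX libraries, and below it in all 8 saline libraries, while Grin3a was above Grin2b in 10 of 16. The order of these 3 also depends on the length used, since division by the longest transcript put Grin3a (423 per kb) above Grin2c (278 per kb) in 14 of 16 libraries, the exceptions being dep1_dex_34 and dep1_dex_64. In the mean over all libraries Grin1 came first, Grin2d second and Grin2a last on either length. The last place was not the same in every library, since Grin2b was the lowest member in con_sal_104 on both lengths and, by longest transcript, the mean of Grin2c (239) was below that of Grin2a (244) in PS saline mice.

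Among the 4 GluN2 genes, Grin2d held 43.4% ± 3.90 of the summed level per kb, Grin2c 23.0% ± 4.34, Grin2b 19.6% ± 3.76 and Grin2a 13.99% ± 2.195 (SD, n = 16). By longest transcript the shares were 46.5%, 20.8%, 17.7% and 15.0%, in the same order. The order of Grin2c and Grin2b rests on the mix of treatments. Grin2c was above Grin2b in 6 of 8 DEX libraries (means 330 and 264 normalized counts per kb) and in 3 of 8 saline libraries (means 211 and 209.9), and in PS saline mice Grin2b held 22.3% and Grin2c 17.9%. The raw normalized counts, which favor long genes, put Grin2b first with 42.2% and Grin2c last with 10.3%. Of all 6 members per kb, Grin1 held 56.7% ± 4.73 with merged exons and 70.6% ± 3.63 with the longest transcript (SD, n = 16), so its share depends on the length chosen.

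**Figure D1:**
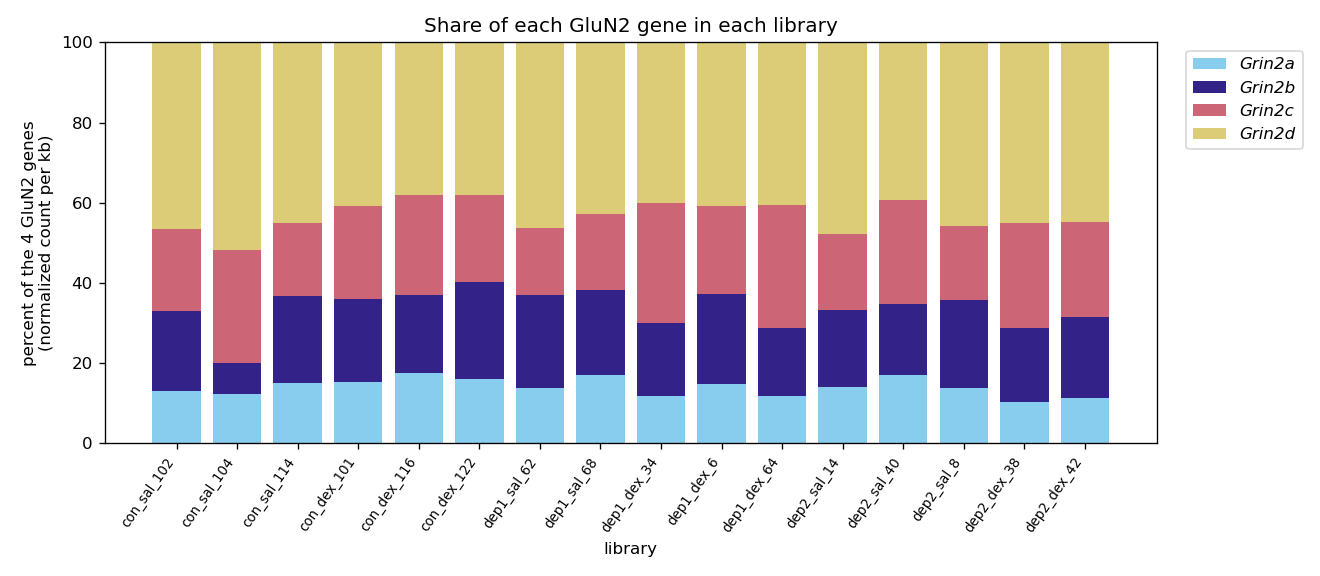
Stacked bars give the percent of the summed level of Grin2a, Grin2b, Grin2c and Grin2d (normalized counts per kb of merged exons) that each gene held in each of the 16 libraries. Grin2d takes the largest part in every library (38.2% to 51.9%), and the Grin2b part is smallest in con_sal_104 (7.80%).

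DEX raised Grin2c, and it was the only subunit gene called. The study already names Grin2c among the genes that changed with DEX in the DRN, so this call is not an independent finding. The study compared DEX and saline within each group by DESeq2, with DRN animals that are not among the libraries used here. The call here is for the effect averaged over the phenotypes. In control mice Grin2c was at 1349, 894 and 771 normalized counts in con_sal_102, con_sal_104 and con_sal_114 and at 1511, 1245 and 1525 in con_dex_101, con_dex_116 and con_dex_122. These groups overlapped, because con_sal_102 was above con_dex_116. In PS mice Grin2c was at 1041 and 1295 in dep1_sal_62 and dep1_sal_68 and at 1830, 1519 and 2123 in dep1_dex_34, dep1_dex_6 and dep1_dex_64. Every DEX library was above both saline libraries, and 21.3% of all genes were without overlap in either direction in PS. In AS mice Grin2c was at 1026, 927 and 1188 in dep2_sal_14, dep2_sal_40 and dep2_sal_8 and at 1751 and 1805 in dep2_dex_38 and dep2_dex_42. These groups again had no overlap for Grin2c, as for 29.8% of all genes in either direction. The control mean was 1005 ± 305 (SD, n = 3) with saline and 1427 ± 158 (SD, n = 3) with DEX. The PS means were 1168 ± 180 (SD, n = 2) and 1824 ± 302 (SD, n = 3), and the AS means were 1047 ± 132 (SD, n = 3) and 1778 ± 38.1 (SD, n = 2).

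**Figure D2:**
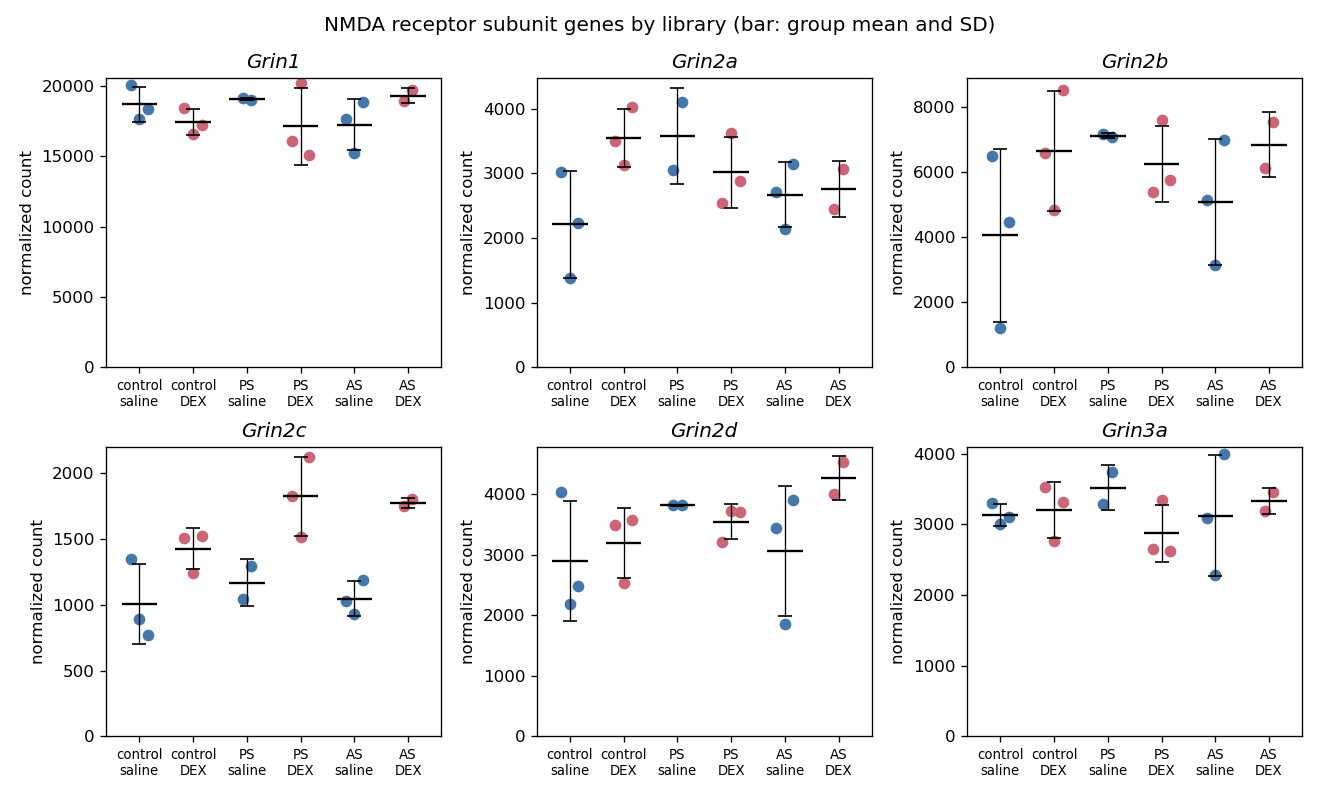
Normalized count of each subunit gene in every library (points), by phenotype and treatment, with the group mean (horizontal bar) and SD. Saline is blue and DEX red; in PS and AS mice the DEX points of Grin2c lie above all saline points, and in controls 1 DEX point lies below the highest saline point. For Grin2d the DEX points lie below the saline points in PS and above them in AS. DEX and saline libraries were without overlap in either direction for 21.3% of all genes in PS and 29.8% in AS.

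Averaged over the 3 phenotypes, the DEX effect on Grin2c was a log2 change of 0.65 (SE 0.12, 95% confidence interval 0.40 to 0.90, or 1.57-fold) with a limma adjusted p of 0.00545. Fold changes are on the scale of log2(normalized count + 1), and calls were made below an adjusted p of 0.1 over the whole table. In this comparison 4.31% of all genes were called and 2.78% were called higher, against 1 of the 6 members, and the members' median log2 change was 0.19 against 0.00 for all genes. Within a phenotype the log2 change of Grin2c was 0.54 (SE 0.19, limma adjusted p 0.289) in controls, 0.64 (SE 0.21, adjusted p 0.488) in PS and 0.77 (SE 0.21, adjusted p 0.1999) in AS, so it was not called in any one of them. The background of calls was 1.26% of genes in controls, 0.703% in PS and 0.689% in AS. By limma 0 of 6 members were called in each phenotype. Before adjustment, 2 of 6 members (Grin2a and Grin2c) had a limma p under 0.05 in controls. Grin2c was the only member under this limit in PS, and likewise in AS. The share of the whole table under the same limit was 12.1% for control mice, 4.69% for PS mice and 9.36% for AS mice. The call in the average was made in all 31 alternatives (log2 change 0.53 to 0.73, adjusted p up to 0.0283). It was 0.61 after removal of the length trend, 0.53 with the long transcript covariate and 0.60 without con_sal_104 and dep2_sal_40. In controls alone the covariate brought the log2 change from 0.54 to 0.32. In AS, Grin2c was called by DESeq2 (adjusted p 0.0485), with library weights (0.00397) and without con_sal_102 (0.0712). Since con_sal_102 is a control library, its removal left the AS log2 change at 0.77. Only the SE, from a spread shared by all groups, fell from 0.21 to 0.16. In PS Grin2c was called with library weights alone (0.0261) and in controls without con_sal_102 alone (log2 change 0.77, adjusted p 0.0469). The control log2 change was 0.37 without con_sal_114 (limma adjusted p 0.343) and 0.48 without con_sal_104 (adjusted p 0.805).

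The DEX effect on Grin2c was not shown to differ between phenotypes. The PS effect exceeded the control effect by 0.10 on the log2 scale (95% confidence interval -0.51 to 0.71), the AS effect exceeded the control effect by 0.23 (-0.38 to 0.84) and the AS effect exceeded the PS effect by 0.13 (-0.51 to 0.78). These limma intervals include differences as large as the average effect itself.

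**Figure D3:**
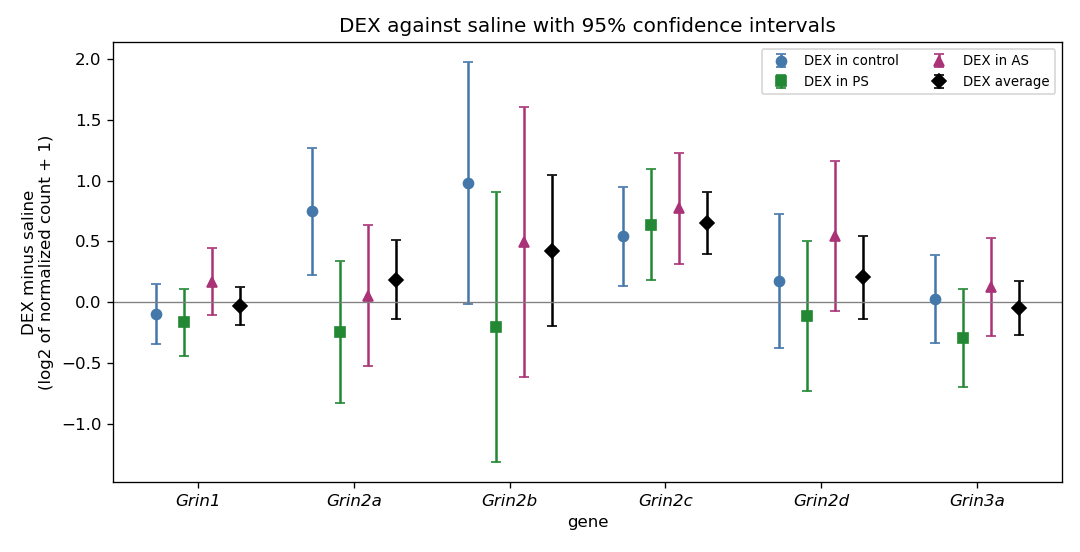
Log2 change between DEX and saline libraries for each subunit gene in control, PS and AS mice and in their average, with 95% confidence intervals from limma. The interval of Grin2c lies above 0 in all 4 comparisons, and that of Grin2a lies above 0 in controls alone.

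As a share of the GluN2 genes, Grin2c was 22.4% ± 5.11 (SD, n = 3) in control saline and 23.2% ± 1.65 (SD, n = 3) in control DEX libraries. In PS it was 17.9% ± 1.72 (SD, n = 2) with saline and 27.7% ± 4.86 (SD, n = 3) with DEX. In AS it was 21.1% ± 4.23 (SD, n = 3) with saline and 24.9% ± 1.69 (SD, n = 2) with DEX. The mean difference over phenotypes was 4.798 percentage points, with a two-sided exact permutation p of 0.05 over the 2000 arrangements of the treatment labels within phenotype, which is not below 0.05. The highest saline shares were those of con_sal_104 (28.1%) and dep2_sal_40 (26.0%), 2 of the 3 libraries low in long transcripts, whereas the third, con_sal_114, had 18.4%. In con_sal_104 Grin2b held 7.80%, the lowest of all libraries, and Grin2d 51.9%. In dep2_sal_40 Grin2d was at 278 normalized counts per kb, its lowest level, against 517 in dep2_sal_14 and 585 in dep2_sal_8, while Grin2a held 16.9% of the GluN2 sum there. Without both libraries the difference was 6.57 points (exact permutation p 0.005), and after removal of the length trend it was 6.40 points (exact permutation p 0.003). With raw normalized counts in place of values per kb it was 2.12 points (exact permutation p 0.147).

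Grin2a and Grin2b encode the GluN2A and GluN2B subunits that dominate NMDA receptors of the forebrain. Grin2a was at 3027, 1379 and 2226 normalized counts in con_sal_102, con_sal_104 and con_sal_114 and at 3502, 3124 and 4018 in con_dex_101, con_dex_116 and con_dex_122. The DEX libraries were all above the saline libraries, as in 15.9% of all genes for these control groups in either direction. The log2 change was 0.75 (SE 0.24, limma adjusted p 0.248), which was not called. It was 1.01 without con_sal_102 (limma adjusted p 0.0601) and 0.44 without con_sal_104 (adjusted p 0.833). The value was 0.27 after removal of the length trend (adjusted p 0.478). In PS Grin2a was at 3048 and 4101 with saline and at 2548, 3616 and 2876 with DEX, a log2 difference of -0.25 (SE 0.27). In AS it was at 2718, 2146 and 3146 with saline and at 2451 and 3060 with DEX, a log2 difference of 0.05 (SE 0.27). The difference between the PS and control effects was -0.99 (SE 0.36, unadjusted p 0.0165 and adjusted p 1 in the limma fit), and -0.48 after removal of the length trend.

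Grin2b was at 6499, 1223 and 4469 normalized counts in the saline libraries con_sal_102, con_sal_104 and con_sal_114, and at 6583, 4839 and 8520 in the control DEX libraries. The value of con_sal_104 was the lowest of all 16 libraries, and the next lowest was 3135 in dep2_sal_40. The log2 difference between control DEX and saline was 0.98 (SE 0.46, limma adjusted p 0.417), against 0.26 without con_sal_104 (adjusted p 0.990), 0.31 after removal of the length trend and -0.02 with the long transcript covariate. In PS the log2 difference was -0.20 (SE 0.52) and in AS 0.50 (SE 0.52), and the latter was 0.18 without dep2_sal_40 and 0.06 after removal of the length trend.

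**Figure D4:**
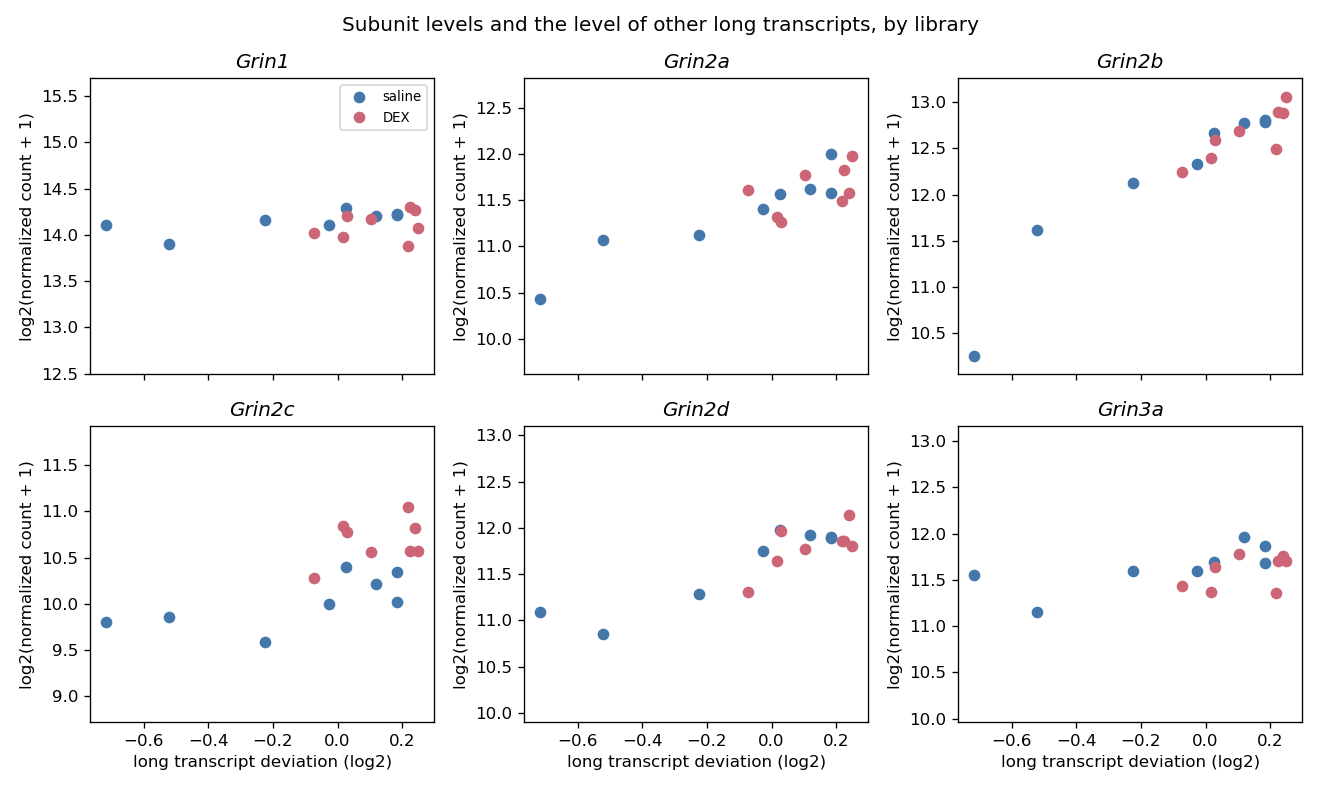
Each point is a library (saline blue, DEX red), placed by the median log2 deviation of 345 other genes with transcripts of at least 10 kb (x) and by the log2(normalized count + 1) of a subunit gene (y, the same span in every panel). Grin2b is lowest in the 2 libraries with the lowest deviation (-0.72 and -0.52), and Grin2c is lowest in the 3 libraries with the lowest deviation. For Grin2c 7 of the 8 DEX points lie above every saline point.

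Grin2d, a subunit of slowly closing receptors, was at 4032, 2179 and 2488 normalized counts with saline and 3484, 2531 and 3579 with DEX in controls. In PS it was at 3811 and 3824 with saline and 3205, 3714 and 3706 with DEX, all DEX values below the saline values. In AS it was at 3443, 1853 and 3895 with saline and 4002 and 4523 with DEX, all DEX values above. The log2 differences were 0.18 (SE 0.26) in controls, -0.11 (SE 0.29) in PS and 0.54 (SE 0.29) in AS, with limma adjusted p of 0.806, 1 and 0.549. The AS value was 0.22 without dep2_sal_40, and the PS value was 0.04 with the astrocyte marker covariate. Over the 32 alternatives the log2 difference of Grin2d was between -0.36 and 0.44 in controls. It was between -0.20 and 0.04 in PS and between 0.17 and 0.75 in AS. In PS, 2 of 6 members had groups without overlap (Grin2c higher, Grin2d lower), against 21.3% of all genes, and in AS, 3 of 6 did (Grin1, Grin2c and Grin2d, all higher), against 29.8%.

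Grin1 differed little between the treatments. It ranged from 15084 to 20246 normalized counts over the 8 DEX libraries and from 15262 to 20059 over the 8 saline libraries, and the average DEX effect was -0.03 (SE 0.07, 95% confidence interval -0.19 to 0.12, limma adjusted p 0.851). Grin3a, whose subunit gives receptors that pass little calcium, ranged from 2628 to 3528 with DEX and from 2282 to 4004 with saline, with an average effect of -0.05 (SE 0.10, limma adjusted p 0.850). The average effects of Grin2a, Grin2b and Grin2d were 0.19 (SE 0.15), 0.42 (SE 0.29) and 0.20 (SE 0.16), none called. After removal of the length trend they were -0.07, 0.07 and 0.14. Over the 31 alternatives their lowest values were -0.08, -0.12 and -0.09 and their highest 0.27, 0.59 and 0.29.

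**Figure D5:**
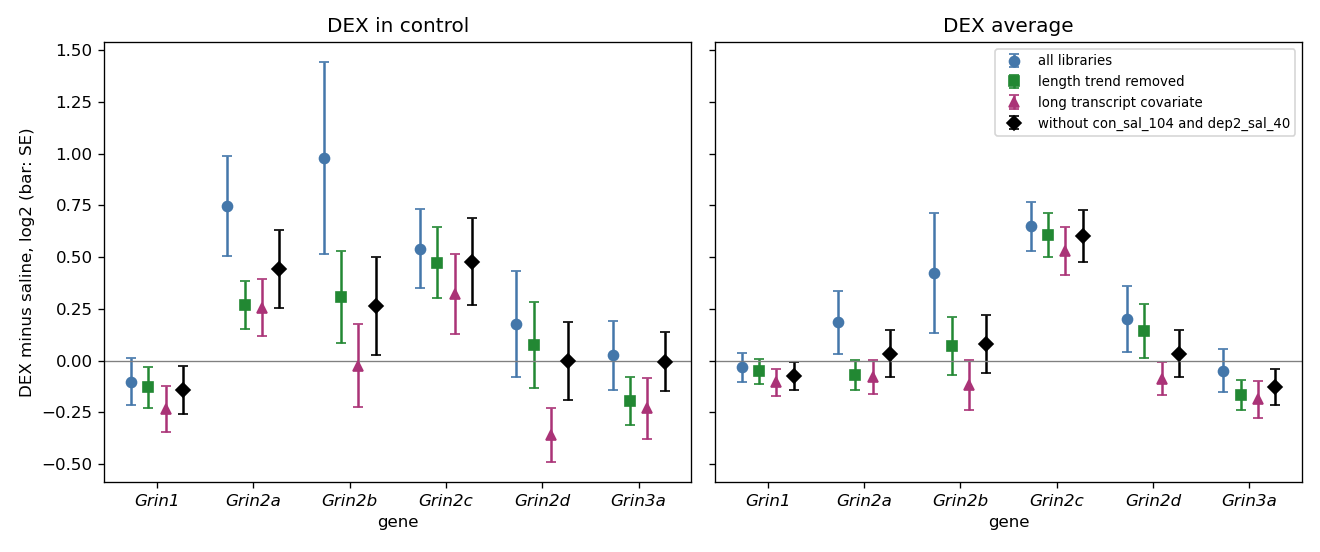
Log2 change between DEX and saline (points, with SE) for each subunit gene in controls and in the average of the 3 phenotypes, in the fit of all libraries, after removal of the transcript length trend, with the long transcript covariate and without con_sal_104 and dep2_sal_40. In controls Grin2b goes from 0.98 to between -0.02 and 0.31, while Grin2c in the average stays between 0.53 and 0.65.

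Chronic stress was read from the saline libraries. No member was called in PS or AS mice against controls or in AS against PS (0 of 6 each, limma), and 0% of all genes were called in these 3 comparisons. At an unadjusted p under 0.05 the PS and control libraries differed in 1112 genes (7.67% of all), among them 2 of the 6 members. The same count was 347 (2.39%) between AS and control libraries and 494 (3.41%) between AS and PS libraries, with 0 members in each. DESeq2 and edgeR called 0 members in these comparisons as well. In PS, Grin2a differed from control by 0.75 (SE 0.27, limma adjusted p 0.571) and Grin2b by 1.12 (SE 0.52, adjusted p 0.571), and both PS libraries lay above the 3 control libraries for these 2 of 6 members, as for 28.5% of all genes in either direction. Without con_sal_104 the differences were 0.45 and 0.40, and after removal of the length trend they were 0.18 and 0.30. With the long transcript covariate they were 0.15 and -0.11, so the direction of the Grin2b difference turned. In AS no member was without overlap against control saline, where 4.49% of all genes were. The largest difference in AS was that of Grin2b at 0.55 (SE 0.46), which turned to -0.16 without con_sal_104 and was 0.15 without con_sal_104 and dep2_sal_40. Grin2c differed from control by 0.25 (SE 0.21, 95% confidence interval -0.20 to 0.70) in PS and by 0.09 (SE 0.19, -0.31 to 0.50) in AS, and the AS mice differed from PS mice by -0.16 (SE 0.21).

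Among the DEX libraries, Grin2c was higher than in controls by 0.35 in PS (SE 0.19, limma adjusted p 1) and by 0.32 in AS (SE 0.21, adjusted p 0.990), and AS and PS differed by -0.02 (SE 0.21). Of the 6 members 0 were called in these comparisons, with backgrounds of 0% (PS and control), 0.00689% (AS and control) and 0% (AS and PS), while 178, 508 and 247 genes had an unadjusted p under 0.05 in the limma fit. The average over all 4 stressed groups against both control groups gave 0.25 for Grin2c (SE 0.12, unadjusted p 0.0544, limma adjusted p 0.748), and 0 of 6 members and 0% of genes were called, with 616 genes at an unadjusted p under 0.05. No member was called in the 3 differences between DEX effects, where 0% of genes were called as well and 304 (PS and control), 583 (AS and control) and 421 (AS and PS) genes had an unadjusted p under 0.05 by limma. At an unadjusted p under 0.05 the limma fit had 1 of 6 members in the difference between PS and control (Grin2a, above) and 0 in the other 2. The shares of all genes were 2.10% (PS and control), 4.02% (AS and control) and 2.90% (AS and PS).

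The proteins around the receptor were described from lists of genes by function, in the average DEX effect, where 4.31% of all genes were called. Nothing particular to a list is read from its count. Of 16 listed scaffold and anchor genes 0 were called (median log2 change 0.10), and of 10 receptor auxiliary and transport genes 0 were called (median 0.10). Of 20 kinase and phosphatase genes 1 was called higher. This was Prkca, a protein kinase C gene, which ranged from 2559 to 3801 normalized counts with saline and from 3771 to 4201 with DEX (log2 change 0.40, SE 0.08, limma adjusted p 0.0133).

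Of 11 genes for the supply and clearance of the co-agonists D-serine and glycine, 1 was called lower. Slc38a5, a transporter of glutamine, serine and glycine, fell from between 63.1 and 192 normalized counts with saline to between 24.2 and 56.3 with DEX (log2 change -1.50, SE 0.28, limma adjusted p 0.00585). Of 14 genes of glutamate supply and clearance 2 were called, both higher. Glul, the enzyme that turns glutamate into glutamine in astrocytes, went from between 49605 and 68242 to between 66027 and 79737 normalized counts (log2 change 0.37, SE 0.07, limma adjusted p 0.0118). Slc38a2, a glutamine transporter, changed by 0.25 (SE 0.07, adjusted p 0.0929), and this call was lost in 20 of 31 alternatives. The calls of Prkca, Slc38a5 and Glul held in every alternative in which the gene was tested. Of the 2 kynurenine pathway genes listed and the 12 identifiers of AMPA, kainate and delta glutamate receptor genes, 0 were called (median log2 change of the latter 0.08). The median of all genes was 0.00 in this comparison. No gene of these lists was called in a single phenotype or in a stress comparison.

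Because Grin2c is expressed by astrocytes as well as neurons, the astrocyte markers are given beside it. All 10 were listed, and their summed level was between 137456 and 171572 normalized counts with saline and between 151192 and 163831 with DEX. In the average DEX effect 1 of the 10 was called. This was Fgfr3, a growth factor receptor gene, which ranged from 3837 to 5946 normalized counts with saline and from 5774 to 8509 with DEX (log2 change 0.55, SE 0.09, limma adjusted p 0.00248). With the mean deviation of the 10 astrocyte markers as a covariate, the DEX effect on Grin2c was 0.66 (limma adjusted p 0.00968), and with that of the general neuron markers it was 0.66 (adjusted p 0.0112). The 5 listed cerebellar granule cell markers summed to between 1745 and 2375 with saline and between 1835 and 2534 with DEX. Some markers of other cells were called in the average DEX effect as well, against 4.31% of all genes. Of these, 3 of 8 myelin markers were called lower (Opalin, Mog and Cnp), 3 of 6 microglia markers were called lower (Cx3cr1, P2ry12 and Aif1), and of 6 oligodendrocyte precursor markers Pdgfra was called higher and Sox10 lower. Of 10 serotonin neuron markers 1 was called lower (Htr1a, log2 change -0.25), and of the 6 general neuron markers 0 were called. The summed myelin markers were between 131646 and 216583 with saline and between 129573 and 182059 with DEX. The part of these shifts in the change of Grin2c was not tested.

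The genes whose profile over the 16 libraries was most like that of Grin2c were ranked among 12857 genes with a mean of at least 100, members left out, by the root mean square difference of their centred log2 values. They were Ptgfrn (0.15 on the log2 scale), Usp54 (0.16), Hip1 (0.16), Tns3 (0.16) and Plce1 (0.16), each over all 16 libraries, against a standard deviation of 0.42 for Grin2c itself. Ptgfrn was at 785 to 1245 normalized counts with saline and 1227 to 1804 with DEX, and Hip1 at 1425 to 2304 with saline and 2499 to 3063 with DEX. The other members were less alike, with differences from Grin2c of 0.32 for Grin2d, 0.40 for Grin2a, 0.43 for Grin1, 0.44 for Grin3a and 0.55 for Grin2b.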

How the data were processed

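Per the labels and the study's methods, polyA RNA was made into strand-specific libraries, and the authors trimmed reads with fastp 0.20.1, aligned them with HISAT2 2.2.1 to mm10 (GRCm38), counted genes with featureCounts and fitted DESeq2 1.36.0. The table the authors deposited holds a signal: counts divided by 1 size factor per library. Multiplied back, 100% of values were whole reads (within 0.05), which gives the depth. The authors' 3 tables of comparisons (log2 fold changes and p-values) were not used. All 14504 genes were tested with limma 3.58.1 on log2(value + 1), with 6 group means over 16 libraries, eBayes with a trend and Benjamini-Hochberg adjustment. Lengths came from GENCODE vM21. Shares were tested by an exact permutation within phenotype. The tests were checked on simulated counts. Alternatives were pseudocounts of 0.1 and 10, minimum means of 10 and 100, TMM, quantile normalization, DESeq2 1.42.0 and edgeR 4.0.16 on the recovered reads, no trend, library weights, only the groups compared, marker covariates, each library left out and 3 chosen later. All members are named, then called list genes (up to 6 a list), and the 5 genes most like Grin2c. The members and lists were chosen with earlier results of these data known. The p-values rest on 2 or 3 animals a group.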

Additional observations from a re-analysis of the deposited data

Results flagged for a closer look

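Groups without overlap in either direction were found for 21.3% of all genes in PS and 29.8% in AS. For Grin2d, the DEX and saline libraries of PS and AS mice were apart in opposite directions. In PS, all 3 DEX libraries were below both saline libraries (log2 difference -0.11, SE 0.29). The highest DEX value there was 3714 and the lowest saline value 3811 normalized counts. In AS both DEX libraries were above all 3 saline libraries (log2 difference 0.54, SE 0.29). The difference between these effects was 0.66 (SE 0.41), with an unadjusted p of 0.129 and an adjusted p of 0.870 in the limma fit, so the effects were not shown to differ. Without dep2_sal_40, one of the libraries low in long transcripts, the AS difference was 0.22, and after removal of the length trend it was 0.46. Over all 32 alternatives the AS difference was between 0.17 and 0.75. The PS difference was 0.04 with the astrocyte marker covariate, where the AS difference was also above 0.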

How the results depend on the processing

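The call of Grin2c in the average DEX effect was made under every alternative run, and no called value changed sign. The number of members called in controls was 0 and became 2 without con_sal_102 (range 0 to 2 when single libraries were left out). In PS it was 0 and became 1 with library weights. In AS it was 0 and became 1 with DESeq2 and 1 with library weights (range 0 to 1 when single libraries were left out). The Grin2c share of the GluN2 genes differed by 4.798 points between treatments, by 4.52 with longest transcripts (exact permutation p 0.0415, against 0.05 with merged exons), by 6.57 without con_sal_104 and dep2_sal_40 and by 6.40 with the length trend removed. Leaving out single libraries gave 4.14 (without con_sal_114, exact permutation p 0.092) to 5.76 (without con_sal_104, exact permutation p 0.011). The length trend, the long transcript covariate and the fit without both libraries were chosen after seeing the data. Of 2676 values of members under alternatives, 125 uncalled values (4.67%) changed sign. A fit of the compared groups alone was not run separately for the average effects, which use all groups. No paired analysis was possible because the groups share no replicate numbers. With 2 or 3 animals a group, the intervals are wide, and the lengths cannot settle the order of Grin2c, Grin3a and Grin2b.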
